A study of Homo sapiens with 36 samples.

Results

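The effect of Di on HK-2 cells, taken as treated minus vehicle control, was compared between 12 h and 48 h of exposure. HK-2 cells are immortalized human cells from the renal proximal tubule, the segment of the nephron that reabsorbs most of the filtered water, salt and glucose. The comparison used 12 of the 36 arrays of the series, chosen by their labels alone: 3 of cells given Di for 12 h, 3 of cells given Di for 48 h, and 3 of vehicle controls at each of these times. The labels call the arrays of a group biological replicates and do not say whether these came from separate cultures. The p-values therefore measure only the spread between arrays within a group, estimated over all 36 arrays. All 4 groups were this 1 line, treated near confluency in a medium with EGF, hydrocortisone, insulin, transferrin and selenite. The same controls also served cells given CdCl, which appear here only in the last comparison. The labels do not spell out the name Di, and the dose and the vehicle are not stated in them.

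Because each time had its own controls, the change of the Di effect is the difference of 2 courses. The Di course is treated cells at 48 h minus treated cells at 12 h, the control course is the same difference in vehicle controls, and the change of the effect is the Di course minus the control course. A change can therefore come from treated cells that moved, from controls that moved, or from both, and the courses are given apart throughout. Values are the deposited log2 signals of 1 probe set per gene, on which a difference of 1 is a 2-fold difference. Errors after ± are SEs of a limma model over all arrays unless an SD is named, n is 3 arrays per group, and a gene passed where its Benjamini-Hochberg adjusted p, over 11092 genes, was under 0.05. A mean under 4 is treated as background, and folds against it are lower bounds computed against 4.

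As background, cells answer reactive chemicals by releasing the transcription factor NRF2 from its inhibitor KEAP1, and NRF2 then drives genes for glutathione, thioredoxin, NADPH and haem breakdown. Unfolded proteins in the cytosol raise heat shock chaperones through HSF1, while unfolded proteins in the endoplasmic reticulum (ER), or a lack of amino acids, act through kinases that raise ATF4, its partner CHOP (gene DDIT3) and amino acid genes. Proximal tubule cells are rich in transporters and are known to lose these when injured or dedifferentiated.

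Within a group, r between arrays over the kept probe sets was 0.986 to 0.995. Of the brush border and transport genes of the proximal tubule, LRP2, CUBN, SLC34A1, AQP1 and GGT1 stayed under 4 in all 4 groups, and 9 of 28 such genes on the array were measured. The 6 endothelial and 5 leukocyte markers were all below background, as were the fibroblast markers PDGFRA, PDGFRB and POSTN, whereas the other 3 fibroblast markers, DCN, LUM and ACTA2, were above 4 in every group. Of 13 distal nephron markers on the array, AQP3, SCNN1A, CDH16 and CLDN16 were above 4 in at least 1 group. In extracts of whole wells, fewer cells of a type and less RNA per cell cannot be told apart.

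The Di effect changed between 12 h and 48 h in 3212 genes (29% of those tested), of which 1671 (15.1%) shifted upward and 1541 (13.9%) downward, and 1288 (11.6%) by at least 2-fold. The Di course passed the test in 6504 genes (58.6%), with 3108 (28%) higher and 3396 (30.6%) lower at 48 h. The control course passed in 5064 genes (45.7%), with 2032 (18.3%) higher and 3032 (27.3%) lower. With every array centred on its median, the control course had 2591 higher and 2476 lower calls. The Di course then had 3475 higher and 3107 lower calls, so the balance of directions in both courses rests on the scaling. The median difference over all genes was 0.035 for the change, -0.018 for the Di course and -0.066 for the control course. Thus cells given vehicle alone also had many differences between the harvests, and 3533 genes moved the same way in both courses, 54.3% of the Di course calls and 69.8% of the control course calls.

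The 3212 genes whose effect changed were split by course. In 1423 (44.3%) the Di course alone passed, in 997 (31%) both courses passed in the same direction, in 471 (14.7%) the control course alone passed, in 267 (8.31%) the courses ran in opposite directions, and in 54 (1.68%) neither passed. Where both went the same way, the Di course was the larger in 926 of 997 genes (92.9%). Of the 267 opposed genes, 183 were higher at 48 h with Di and lower in controls, and 84 were the reverse. The plot of the courses sets every gene by these values.

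**Figure D1:**
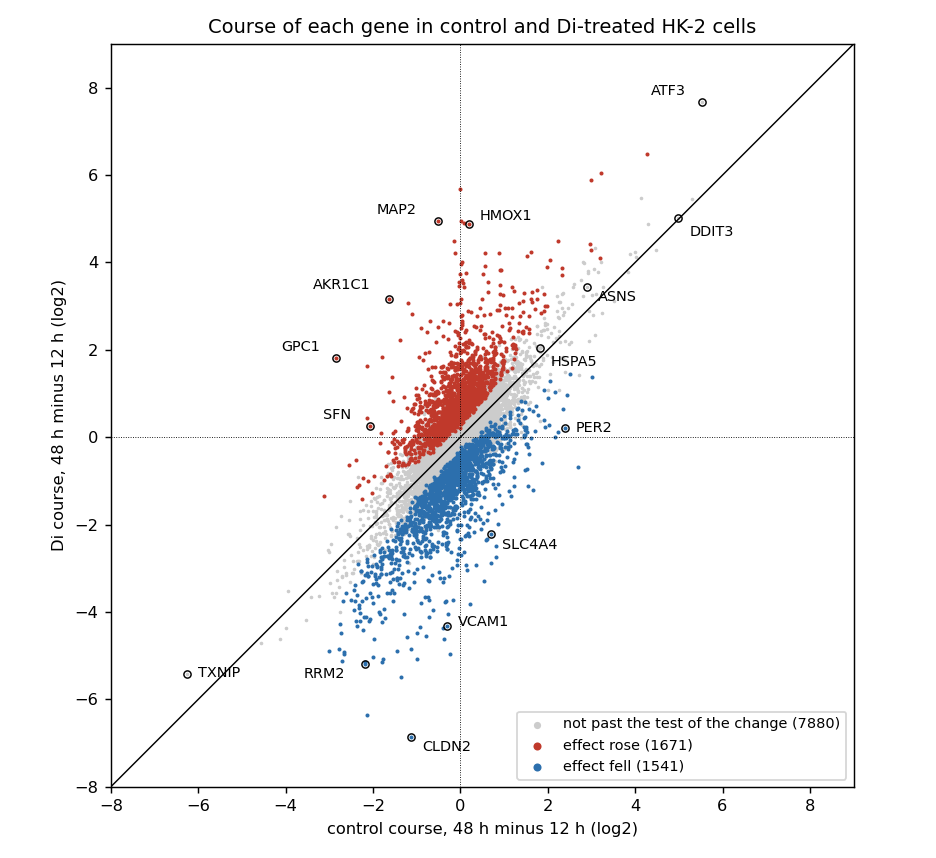
Control course (horizontal axis) against Di course (vertical axis) of each of 11092 genes, both as log2 signal at 48 h minus 12 h. Grey points are genes whose Di effect did not pass the test of change, red points the 1671 whose effect shifted upward and blue points the 1541 whose effect shifted downward; on the diagonal the courses are equal, as for DDIT3, while HMOX1 lies far above it at a control course near 0.

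The effects at each time follow from the same arrays and share them with the change. At 12 h the Di effect passed in 695 genes (6.27%), 185 (1.67%) higher and 510 (4.6%) lower with Di, and 59 (0.532%) passed and differed by at least 2-fold. At 48 h it passed in 4773 genes (43%), 2122 (19.1%) higher and 2651 (23.9%) lower, and 1424 (12.8%) did so by at least 2-fold. With centred arrays the 48 h effect had 2572 higher and 2342 lower calls, so the balance of its directions rests on the scaling. Of the genes whose effect changed, 2594 (80.8%) had a called effect at 48 h and not at 12 h, 178 (5.54%) at 12 h and not at 48 h, 188 at both and 252 (7.85%) at neither.

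The 2 lists of NRF2 targets had the highest median changes of the lists examined. Of 14 measured targets in haem breakdown, iron storage and quinone reduction, 11 shifted upward and 0 downward, with a median change of 1.92, a median Di course of 1.66 and a median control course of -0.20. The shares over all genes were 15.1% upward and 13.9% downward. HMOX1, haem oxygenase that splits haem into biliverdin, iron and carbon monoxide, read 8.10, 8.08 and 7.76 in the 12 h controls, 8.74, 8.94 and 8.78 with Di at 12 h, 8.10, 8.21 and 8.21 in the 48 h controls and 13.64, 13.87 and 13.61 with Di at 48 h. The 12 h Di arrays lay just above their controls, the 48 h controls met the top of the range of the 12 h controls, and the 48 h Di arrays stood far above all others. Its change was 4.70 ± 0.27 (adjusted p = 2.75e-13), a gain of the treated to control ratio of 25.9-fold, made of a Di course of 4.89 ± 0.19 and a control course of 0.19 ± 0.19 that did not pass (adjusted p = 0.439). NQO1, a quinone reductase, read 10.92, 10.77 and 10.74 in the 12 h controls, 11.37, 11.09 and 11.37 with Di at 12 h, 10.03, 10.02 and 10.07 in the 48 h controls and 13.70, 13.66 and 13.65 with Di at 48 h. Here the controls moved down while the treated cells moved up, so the change of 3.17 ± 0.18 exceeded the Di course of 2.40 ± 0.13. The control course of NQO1 was -0.77 ± 0.13 (adjusted p = 1.33e-05). The aldo-keto reductases AKR1C1 and AKR1C2, which share much of their sequence and may share probes, changed by 4.79 ± 0.38 and 4.28 ± 0.31. OSGIN1, an oxidative stress gene, was under 4 in the other 3 groups and at least 14.7-fold higher with Di at 48 h.

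Targets that make and recycle glutathione, thioredoxin and NADPH behaved alike: 18 of 22 measured shifted upward and 0 downward, with a median of 1.30. Those shares were 15.1% and 13.9% over all genes. GCLM and GCLC are the modifier and catalytic subunits of the enzyme that limits glutathione synthesis. The promoter of GCLM is printed because it held a match to the antioxidant response motif TGACNNNGC, searched on both strands, and because GCLM had the largest change among the members of this list with a match. It is shown from 250 bases before to 50 after the RefSeq start site (GRCh38.p14, chr1:93909381-93909680, minus strand, read 5′ to 3′), with the match in capitals.
GCLM: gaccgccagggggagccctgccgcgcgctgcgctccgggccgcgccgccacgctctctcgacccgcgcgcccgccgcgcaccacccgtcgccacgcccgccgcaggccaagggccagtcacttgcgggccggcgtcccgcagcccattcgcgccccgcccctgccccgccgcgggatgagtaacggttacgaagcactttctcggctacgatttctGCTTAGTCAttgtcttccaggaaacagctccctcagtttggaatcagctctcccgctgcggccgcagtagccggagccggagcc
The motif occurred in 13.6% of all 27305 RefSeq promoters of this length, in 15.4% of the 9184 promoters of genes tested here, in 4 of the 16 of this list that had one (25%) and in 2 of 11 of the haem and quinone list (18.2%). In none of the 5 promoters printed here did the match overlap a match to another motif searched, and a match is a run of letters, not evidence of binding.

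GCLM read 9.69, 9.72 and 9.79 in the 12 h controls, 10.60, 10.50 and 10.52 with Di at 12 h, 9.46, 9.29 and 9.67 in the 48 h controls and 13.24, 13.19 and 12.99 with Di at 48 h. Its treated arrays were above controls at both times, by 0.80 ± 0.15 at 12 h and 3.67 ± 0.15 at 48 h, with no overlap. The control course of -0.26 ± 0.15 did not pass, and the change was 2.86 ± 0.22 (adjusted p = 6.45e-11). GCLC read 8.63, 8.46 and 8.49 in the 12 h controls, 8.61, 8.22 and 8.40 with Di at 12 h, 9.08, 9.12 and 9.08 in the 48 h controls and 12.60, 12.60 and 12.66 with Di at 48 h. Here the 12 h groups overlapped (difference -0.11 ± 0.24, adjusted p = 0.843), and the 48 h Di arrays stood above every other group. The change of GCLC was 3.64 ± 0.34 (adjusted p = 3.41e-09), with a Di course of 4.21 ± 0.24.

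Enzymes that reduce oxidized thiols followed. TXNRD1, thioredoxin reductase, read 10.91, 10.96 and 11.01 in the 12 h controls, 11.81, 11.95 and 11.89 with Di at 12 h, 11.51, 11.38 and 11.59 in the 48 h controls and 14.24, 14.24 and 14.25 with Di at 48 h. It was one of the few in this group already separate at 12 h (effect 0.92 ± 0.11), and its control course of 0.54 ± 0.11 also passed, so its change of 1.82 ± 0.15 was smaller than its Di course of 2.36 ± 0.11. SRXN1, sulfiredoxin that repairs overoxidized peroxiredoxins, changed by 3.36 ± 0.22 with a control course of 0.08 ± 0.16. Over both target lists 7 genes had a called effect at 12 h, 3 of 14 and 4 of 22, and 33 did at 48 h, 13 of 14 and 20 of 22. Among all genes tested, 6.27% had a called effect at 12 h and 43% at 48 h. The 12 h count of the haem and quinone list was 0 of 14 without control 12 h replicate 3. SLC7A11, the cystine carrier that feeds glutathione synthesis and is also an ATF4 target, moved in both courses: its Di course of 5.47 ± 0.43 stood beside a control course of 4.13 ± 0.43, and its change of 1.34 ± 0.60 did not pass (adjusted p = 0.0977; 0.0117 with only the 4 groups fitted).

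Beside 15.1% and 13.9% of all genes, 5 of 9 measured regulators and partners of NRF2 shifted upward and 0 downward (median 0.76). They were KEAP1 (1.31 ± 0.22), the partner proteins MAFG (1.34 ± 0.31) and MAFF (1.68 ± 0.22), and, chosen after their values were seen, the competing repressor BACH1 (0.87 ± 0.16) and the related factor NFE2L1 (0.61 ± 0.23). The mRNA of NRF2 itself, NFE2L2, also chosen after its values were seen, had a difference of effects of 0.08 ± 0.26 (adjusted p = 0.858). NFE2L2 stood at a mean of 12.04 in the 12 h controls, 11.91 with Di at 12 h, 12.63 in the 48 h controls and 12.59 with Di at 48 h.

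**Figure D2:**
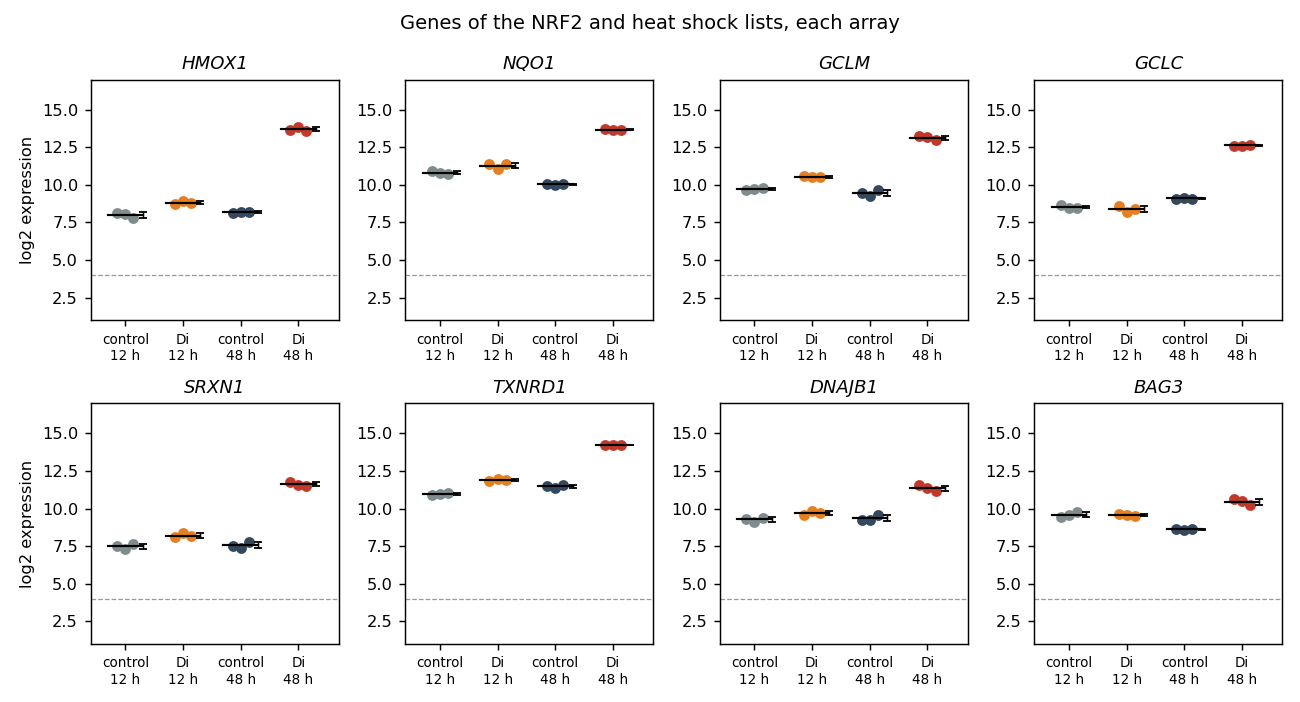
Log2 signal of 8 genes of the NRF2 and heat shock lists (HMOX1, NQO1, GCLM, GCLC, SRXN1, TXNRD1, DNAJB1 and BAG3) on each of the 12 arrays. Points are arrays, lines are group means, bars are SDs over 3 arrays and the dashed line marks the background level of 4; in each panel the 3 arrays of Di at 48 h are above the 3 arrays of every other group.

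Cytosolic chaperones shifted upward as well. In the heat shock list 14 of 20 measured genes shifted upward and 1 downward, with a median of 0.78, and the control course of 11 of the 20 passed downward. Among all genes 15.1% shifted upward and 13.9% downward, and the control course of 27.3% passed downward. DNAJB1, an HSP40 cochaperone that feeds clients to HSP70, read 9.33, 9.11 and 9.39 in the 12 h controls, 9.59, 9.82 and 9.67 with Di at 12 h, 9.27, 9.25 and 9.59 in the 48 h controls and 11.54, 11.36 and 11.20 with Di at 48 h. All 3 arrays of Di at 48 h lay more than 1 unit above the rest, and at 12 h the treated arrays also lay above their controls without overlap, a difference of 0.42 ± 0.22 that did not pass (adjusted p = 0.259). The change of DNAJB1 was 1.58 ± 0.31 (adjusted p = 0.000233) and its control course 0.09 ± 0.22. BAG3, which links HSP70 to autophagy, read 9.44, 9.57 and 9.79 in the 12 h controls, 9.62, 9.59 and 9.54 with Di at 12 h, 8.64, 8.60 and 8.61 in the 48 h controls and 10.63, 10.48 and 10.24 with Di at 48 h. Its 12 h groups overlapped, its controls fell by 0.99 on the log2 scale and its treated cells rose by 0.87 ± 0.15, which gave a change of 1.85 ± 0.22. DNAJB4 changed by 1.89 ± 0.24, nearly all of it Di course (1.97 ± 0.17).

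HSPA6, an HSP70 form that is hardly made without stress and resembles other HSP70 genes, read 2.44, 2.46 and 2.46 in the 12 h controls, 2.44, 2.48 and 2.44 with Di at 12 h, 2.47, 2.44 and 2.47 in the 48 h controls and 5.47, 6.25 and 5.13 with Di at 48 h. Only Di at 48 h was above background, at least 3.06-fold over its control. It is the member with the largest change whose promoter held the heat shock motif, searched on both strands as GAA, TTC and GAA with any 2 bases between neighbours. That promoter (GRCh38.p14, chr1:161524290-161524589, plus strand, RefSeq) is shown with the match in capitals.
HSPA6: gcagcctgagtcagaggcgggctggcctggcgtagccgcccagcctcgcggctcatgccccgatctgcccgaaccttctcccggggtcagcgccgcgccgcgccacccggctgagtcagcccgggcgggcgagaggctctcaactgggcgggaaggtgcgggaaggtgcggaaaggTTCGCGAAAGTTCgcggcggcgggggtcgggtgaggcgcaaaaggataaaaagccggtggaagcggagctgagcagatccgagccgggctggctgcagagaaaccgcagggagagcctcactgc
The motif occurred in 0.487% of all promoters, in 0.316% of those of genes tested and in 4 of the 17 heat shock promoters found (23.5%).

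Most proteasome subunits fell in controls. Of 27 measured, 6 shifted upward and 0 downward, beside 15.1% and 13.9% of all genes, with a median of 0.13. In the control course 20 passed downward and in the Di course 13, beside 27.3% and 30.6% of all genes. In 4 of the 6 the control course alone passed. Median centring of the arrays left 12 of 27 falling in controls and 2 shifted upward in the change, and 3 were left without Di 12 h replicate 1, so this count rests on the scaling and on that array. PSMD2, a subunit of the regulatory particle, changed by 0.47 ± 0.11, with -0.38 ± 0.08 in treated cells and -0.86 ± 0.08 in controls.

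Most ATF4, CHOP and ER stress genes rose in both courses, and the count that differed between them depended on which groups were fitted. Over all genes 28% rose in the Di course, 18.3% rose in the control course and 15.1% shifted upward in the change. Of 16 measured regulators of the ATF4 and CHOP arm, 13 rose in the Di course (median 2.26) and 13 in the control course (median 1.76), and 2 passed the change. Of 21 ER chaperones and XBP1 or ATF6 targets, 21 rose with Di (median 2.05) and 20 in controls (median 1.82), and 2 passed the change. Of 18 genes of amino acid synthesis and uptake, 16 rose with Di and 14 in controls (medians 1.53 and 1.37), and 0 passed the change in limma over all 36 arrays (1, downward, at an unadjusted p under 0.05). With only the 4 groups fitted, the change counts became 5, 8 and 6, all upward, so these counts rest on which groups share the spread.

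DDIT3, which encodes CHOP, read 8.26, 7.93 and 8.02 in the 12 h controls, 8.41, 8.62 and 8.38 with Di at 12 h, 13.00, 13.12 and 13.06 in the 48 h controls and 13.43, 13.41 and 13.63 with Di at 48 h. At each time the treated arrays lay slightly above their controls, and both groups at 48 h lay more than 4 units above both at 12 h. Its courses were 5.02 ± 0.58 with Di and 4.99 ± 0.58 in controls, so the change was 0.03 ± 0.82 (adjusted p = 0.985). ASNS, asparagine synthetase and a classic ATF4 target, read 9.08, 8.99 and 8.99 in the 12 h controls, 9.14, 9.00 and 9.05 with Di at 12 h, 11.82, 11.96 and 11.94 in the 48 h controls and 12.63, 12.51 and 12.40 with Di at 48 h. It had a change of 0.56 ± 0.58 (adjusted p = 0.512; 0.00299 with only the 4 groups fitted). HSPA5, the ER chaperone BiP, read 13.49, 13.59 and 13.56 in the 12 h controls, 13.66, 13.44 and 13.67 with Di at 12 h, 15.42, 15.40 and 15.28 in the 48 h controls and 15.53, 15.68 and 15.68 with Di at 48 h. Its arrays of Di at 48 h were above the 48 h controls without overlap, and its change was 0.22 ± 0.40 (adjusted p = 0.729). In this model 1 spread per gene is shared over all 12 groups of the series.

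ATF3, a stress factor of the ATF family, read 4.54, 4.88 and 3.96 in the 12 h controls, 5.63, 4.49 and 5.69 with Di at 12 h, 9.89, 9.96 and 10.10 in the 48 h controls and 13.01, 12.93 and 12.91 with Di at 48 h. Its change of 2.15 ± 0.98 did not pass over all 36 arrays (adjusted p = 0.1) and did with only the 4 groups fitted (0.00264). STC2, a secreted glycoprotein, rose by 6.05 ± 0.56 with Di and by 3.22 ± 0.56 in controls, a change of 2.83 ± 0.79 (adjusted p = 0.00771). PPP1R15A, which directs the phosphatase that ends the block on translation, changed by 1.60 ± 0.51 (adjusted p = 0.0183; 0.0589 without Di 12 h replicate 2). Among ER proteins, HSP90B1 (GRP94) changed by 0.85 ± 0.25 and the disulfide isomerase PDIA3 by 0.80 ± 0.20. TRIB3, which restrains ATF4, went the other way in size, 1.83 ± 0.22 with Di against 2.10 ± 0.22 in controls, without passing (change -0.26 ± 0.31, adjusted p = 0.578).

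Cytosolic tRNA synthetases load amino acids on their tRNAs and are ATF4 targets in part. In each course 12 of 17 rose (medians 1.04 with Di and 0.63 in controls), beside 28% and 18.3% of all genes. In the change 4 shifted upward (8 with only the 4 groups fitted, 1 without control 12 h replicate 2) and 0 downward, beside 15.1% and 13.9% of all genes. LARS1, the leucine enzyme, changed by 0.87 ± 0.15. The promoter of AARS1, the alanine enzyme, is shown because it held the amino acid response motif TGATGNAA (both strands), and AARS1, chosen after its values were seen, had the largest control course among the list members that did. It rose by 2.27 ± 0.25 with Di and 2.19 ± 0.25 in controls (change 0.09 ± 0.35). Its RefSeq promoter (GRCh38.p14, chr16:70289457-70289756, minus strand) has the match in capitals.
AARS1: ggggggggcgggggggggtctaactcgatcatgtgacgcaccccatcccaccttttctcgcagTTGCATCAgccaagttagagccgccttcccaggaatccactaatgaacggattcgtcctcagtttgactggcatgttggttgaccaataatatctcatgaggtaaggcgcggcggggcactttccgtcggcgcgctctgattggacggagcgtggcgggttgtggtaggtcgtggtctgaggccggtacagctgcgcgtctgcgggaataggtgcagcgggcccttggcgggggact
The motif occurred in 3.67% of all promoters, in 1.74% of those of genes tested, in 5 of 14 synthetase promoters (35.7%), in 3 of 15 of the ATF4 and CHOP regulators (20%) and in 3 of 14 of the amino acid genes (21.4%).

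The thioredoxin inhibitor TXNIP fell in both courses. It read 9.77, 10.02 and 9.83 in the 12 h controls, 7.72, 7.73 and 7.55 with Di at 12 h, 3.15, 4.34 and 3.38 in the 48 h controls and 2.37, 2.33 and 2.08 with Di at 48 h. At 12 h the treated arrays lay about 2 units below their controls without overlap (effect -2.20 ± 0.43), and by 48 h both group means were below 4. Its fall was at least 58.5-fold in controls and at least 12.7-fold with Di, and because both 48 h means were at background no size is given for its change. Its relative ARRDC4 fell in controls (-1.65 ± 0.18) and had a Di course of -0.34 ± 0.18 that did not pass, a change of 1.31 ± 0.25.

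**Figure D3:**
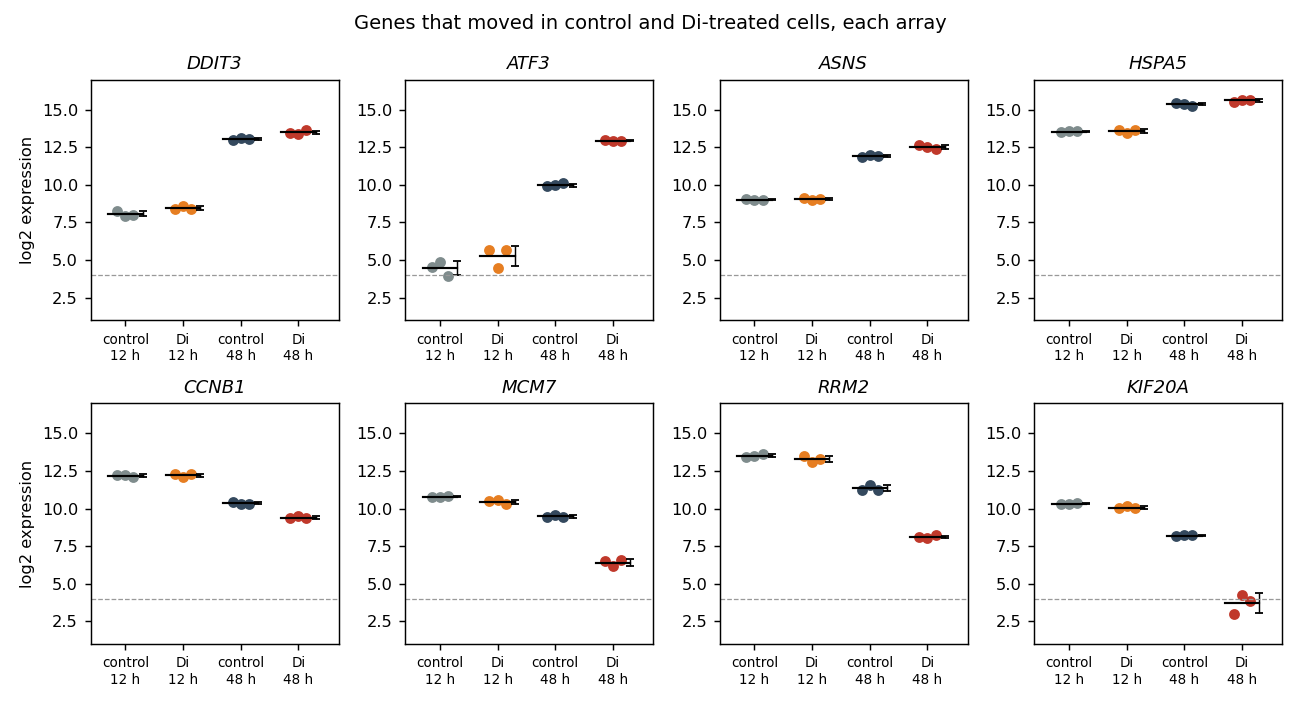
Log2 signal of DDIT3, ATF3, ASNS, HSPA5, CCNB1, MCM7, RRM2 and KIF20A on each of the 12 arrays, with group means as lines, SDs over 3 arrays as bars and a dashed line at 4. Both treated and control cells moved in the same direction from 12 h to 48 h in all 8 panels, by nearly the same amount for DDIT3 and by more with Di for RRM2.

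Genes of cell division fell in both courses and further with Di. Of 33 measured genes of DNA replication and the G1 to S step, 31 fell with Di (median -2.74) and 30 in controls (median -1.56), and 23 shifted downward and 0 upward in the change (median -1.06). Of 36 genes of G2 and mitosis, 36 fell with Di (median -2.89) and 36 in controls (median -1.89), and 27 shifted downward and 0 upward (median -0.99). Of all genes tested, 30.6% fell with Di and 27.3% in controls, and 13.9% shifted downward and 15.1% upward. At 12 h, 1 of 33 and 5 of 36 were lower with Di, beside 4.6% of all genes. The mitosis count at 12 h was 2 without control 12 h replicate 2 or replicate 3, 1 without Di 12 h replicate 3, 1 with centred arrays, 18 with array weights and 10 with the replicate block, and the replication count was 5 with the block and 9 with array weights, so neither is read as a result.

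RRM2, the small subunit of ribonucleotide reductase, read 13.42, 13.53 and 13.63 in the 12 h controls, 13.52, 13.13 and 13.30 with Di at 12 h, 11.21, 11.58 and 11.27 in the 48 h controls and 8.11, 8.07 and 8.21 with Di at 48 h. The 12 h groups overlapped, the 48 h controls lay about 2 units lower and the 48 h Di arrays a further 3 units lower. Its change of -3.01 ± 0.14 (adjusted p = 4.78e-15) joined a Di course of -5.19 ± 0.10 and a control course of -2.18 ± 0.10. MCM7, a subunit of the replicative helicase, read 10.76, 10.76 and 10.82 in the 12 h controls, 10.50, 10.57 and 10.30 with Di at 12 h, 9.42, 9.57 and 9.46 in the 48 h controls and 6.48, 6.16 and 6.57 with Di at 48 h. Its 12 h Di arrays all lay below the 12 h controls, by a difference of -0.32 ± 0.17 that did not pass (adjusted p = 0.264), and its change was -2.76 ± 0.24. CCNB1, the cyclin that starts mitosis, read 12.26, 12.25 and 12.10 in the 12 h controls, 12.30, 12.10 and 12.27 with Di at 12 h, 10.46, 10.33 and 10.32 in the 48 h controls and 9.36, 9.49 and 9.34 with Di at 48 h. The 12 h groups overlapped, and its change of -0.99 ± 0.16 (adjusted p = 2.71e-05) was smaller than the fall of 1.83 in its controls.

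KIF20A, a kinesin of cell division, read 10.31, 10.30 and 10.38 in the 12 h controls, 10.02, 10.15 and 10.03 with Di at 12 h, 8.14, 8.21 and 8.23 in the 48 h controls and 2.96, 4.27 and 3.87 with Di at 48 h. The 48 h Di group averaged under 4, so its Di course is given as at least 67.0-fold lower and its change as at least 15.2-fold. LMNB1, a lamin of the nuclear envelope, changed by -3.70 ± 0.26, and CCNE2, an S phase cyclin, by -3.02 ± 0.22. HMMR, a spindle and hyaluronan-binding protein, was lower with Di at 12 h too (effect -0.62 ± 0.12) and changed by -1.15 ± 0.16. In the homologous recombination and Fanconi list, 5 of 17 shifted downward (8 with array weights) and 0 upward, beside 13.9% and 15.1% of all genes. The share called in either direction was near the 29% over all genes. BARD1, the partner of BRCA1, changed by -1.82 ± 0.27.

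Promoters of these genes are shown for the members with the largest measured change among those holding the motif of their list. MCM7 held 2 matches to the E2F motif TTTNNCGC (GRCh38.p14, chr7:100101348-100101647, minus strand), and NUSAP1, a spindle protein chosen for its motif after its values were seen, held 1 match to the cell cycle homology motif TTTGAA (chr15:41332631-41332930, plus strand), both in capitals and both from RefSeq.
MCM7: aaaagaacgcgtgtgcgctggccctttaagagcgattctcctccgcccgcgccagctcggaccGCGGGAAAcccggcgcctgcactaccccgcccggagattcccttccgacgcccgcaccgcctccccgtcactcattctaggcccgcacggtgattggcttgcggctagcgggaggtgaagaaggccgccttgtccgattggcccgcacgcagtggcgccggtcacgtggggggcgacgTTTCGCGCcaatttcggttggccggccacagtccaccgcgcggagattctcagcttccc
NUSAP1: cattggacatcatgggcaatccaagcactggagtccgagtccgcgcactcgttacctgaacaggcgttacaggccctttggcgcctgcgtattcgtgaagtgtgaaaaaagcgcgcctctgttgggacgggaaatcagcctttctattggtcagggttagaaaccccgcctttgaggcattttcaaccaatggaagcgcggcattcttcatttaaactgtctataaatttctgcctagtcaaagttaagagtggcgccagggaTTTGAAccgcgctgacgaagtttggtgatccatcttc
The E2F motif occurred in 6.9% of all promoters, in 10.8% of those of genes tested, in 20 of 30 of the replication list (66.7%) and in 4 of 29 of the mitosis list (13.8%). TTTGAA occurred in 15.4% of all, in 9.6% of those of genes tested, in 18 of 29 of the mitosis list (62.1%) and in 1 of 30 of the replication list (3.33%). The change of NUSAP1 was -1.82 ± 0.13, with -3.28 ± 0.09 in the Di course and -1.46 ± 0.09 in the control course.

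**Figure D4:**
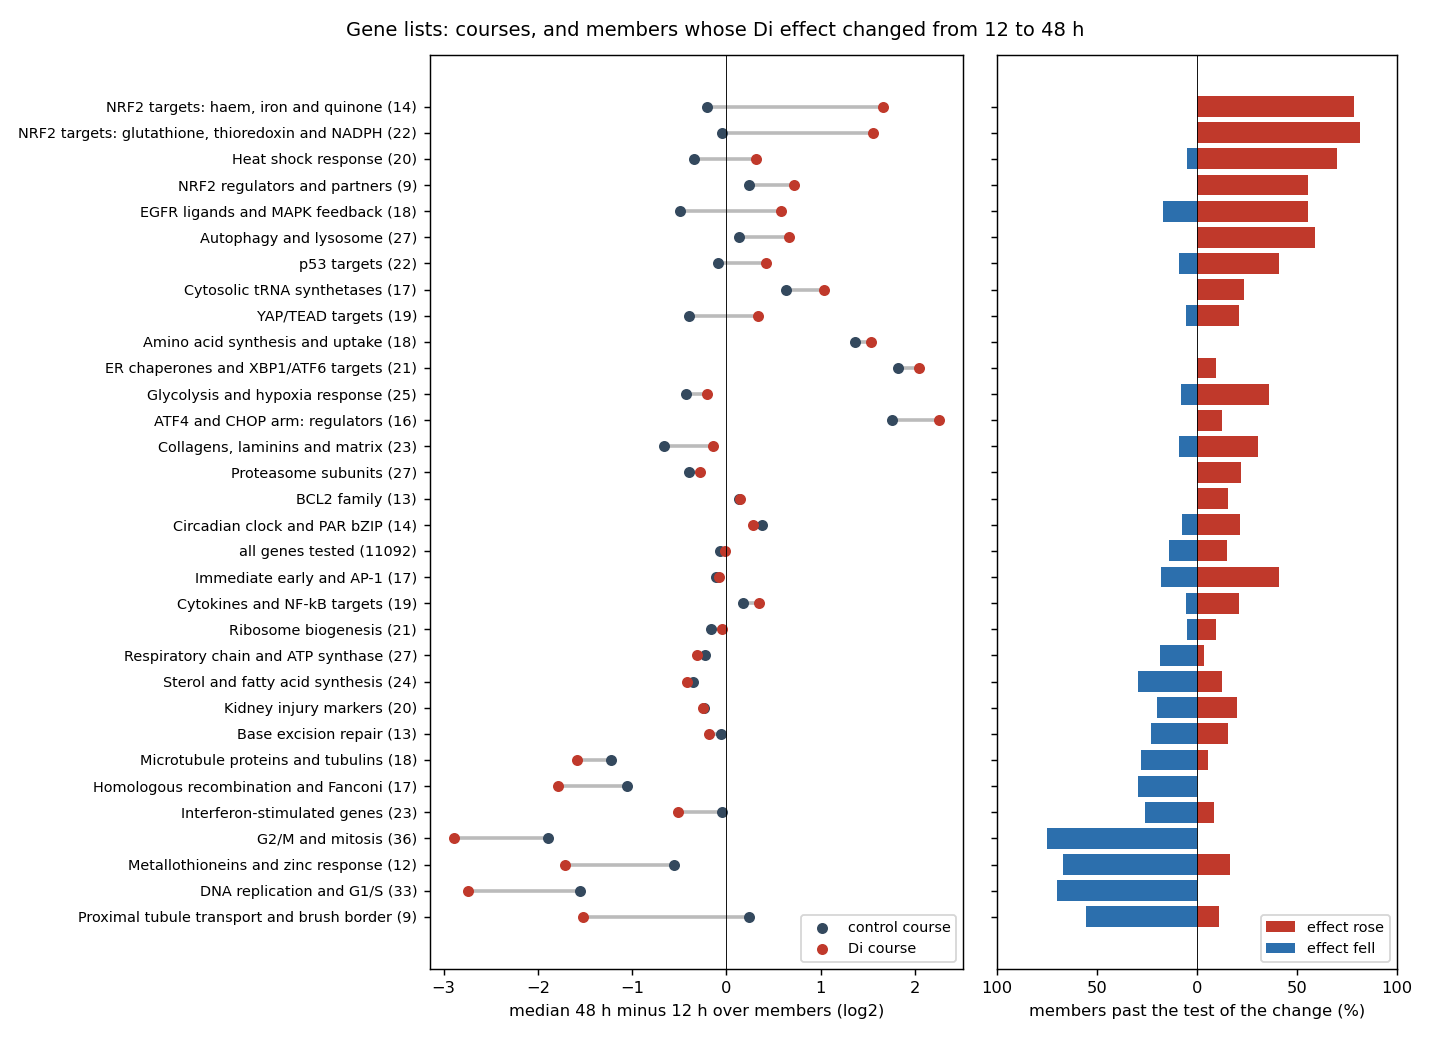
Left, the median log2 course of each gene list with at least 9 measured members, for controls and for Di; right, the percent of measured members whose Di effect shifted upward or downward past the test. Replication and mitosis lists fell in both courses and further with Di, ER chaperones rose by similar medians (1.82 in controls, 2.05 with Di), and both NRF2 target lists had control medians near 0 beside Di medians of 1.66 and 1.56.

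In 267 genes the courses ran in opposite directions. AKR1C1 read 8.68, 8.56 and 8.60 in the 12 h controls, 8.43, 8.74 and 8.49 with Di at 12 h, 6.83, 6.79 and 7.31 in the 48 h controls and 11.79, 11.64 and 11.69 with Di at 48 h. The 12 h groups overlapped, controls then fell and treated cells rose, so that the 48 h groups lay on either side of both 12 h groups (Di course 3.15 ± 0.27, control course -1.64 ± 0.27). GPC1, a heparan sulfate proteoglycan of the cell surface, read 7.07, 7.14 and 7.03 in the 12 h controls, 7.07, 6.97 and 7.29 with Di at 12 h, 3.74, 4.60 and 4.33 in the 48 h controls and 8.87, 8.93 and 8.98 with Di at 48 h. Its controls fell by 2.86 on the log2 scale and its treated cells rose by 1.81 ± 0.20, a change of 4.67 ± 0.29. The receptor kinase EPHB1 (1.63 ± 0.21 with Di, -2.14 ± 0.21 in controls), the KIT ligand KITLG (2.23 ± 0.15 and -1.37 ± 0.15) and kynureninase, KYNU (2.82 ± 0.28 and -1.10 ± 0.28), had the same pattern. In the reverse direction, SLC4A4, the basolateral sodium bicarbonate carrier of the proximal tubule, read 12.20, 12.27 and 12.08 in the 12 h controls, 11.87, 11.80 and 11.99 with Di at 12 h, 12.86, 12.92 and 12.87 in the 48 h controls and 9.69, 9.51 and 9.79 with Di at 48 h. It rose by 0.70 ± 0.23 in controls and fell by 2.22 on the log2 scale with Di, a change of -2.93 ± 0.33.

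In 471 genes the control course alone passed, so the change of the effect arose while treated cells had no called difference between the times. SFN, the 14-3-3 sigma protein of epithelial cells, read 11.60, 11.58 and 11.83 in the 12 h controls, 11.64, 11.86 and 11.76 with Di at 12 h, 9.62, 9.47 and 9.74 in the 48 h controls and 11.99, 12.04 and 11.98 with Di at 48 h. The treated arrays stayed between 11.64 and 12.04 while the 48 h controls lay about 2 units lower, which gave a change of 2.31 ± 0.17 from a control course of -2.06 ± 0.12 and a Di course of 0.25 ± 0.12 that did not pass (adjusted p = 0.0803). RUNX2, an osteogenic transcription factor, had -2.13 ± 0.32 in controls and 0.43 ± 0.32 with Di. CCND1, the cyclin of G1, had -1.81 ± 0.38 in controls and 0.09 ± 0.38 with Di. CD44, the hyaluronan receptor, had -1.34 ± 0.23 and -0.07 ± 0.23, and the lysosomal enzyme GLA -1.16 ± 0.10 and -0.12 ± 0.10. The opposite sign occurred for PER2, a repressor of the circadian clock, which read 5.20, 4.94 and 4.91 in the 12 h controls, 5.75, 4.60 and 4.88 with Di at 12 h, 7.22, 7.57 and 7.40 in the 48 h controls and 4.89, 5.67 and 5.29 with Di at 48 h. Its controls rose by 2.38 ± 0.35 while its treated arrays at the 2 times overlapped, a change of -2.17 ± 0.50 (adjusted p = 0.00138). The clock activator BMAL1 shifted by 1.61 ± 0.29, and of 14 clock genes 3 shifted upward and 1 downward (4 with array weights), a share near the 29% over all genes.

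Among the genes whose Di course alone passed was MAP2, which stabilizes microtubules in neurons, with one of the largest changes of all. It read 6.90, 6.87 and 7.30 in the 12 h controls, 7.04, 6.44 and 6.48 with Di at 12 h, 6.43, 6.68 and 6.43 in the 48 h controls and 11.48, 11.68 and 11.65 with Di at 48 h. Only the arrays of Di at 48 h stood apart, at a change of 5.46 ± 0.70 (43.9-fold, adjusted p = 7.66e-07). In the list of microtubule proteins that held it, the other calls were downward (1 up and 5 down of 18, or 4 and 8 with only the 4 groups fitted). Over all genes 15.1% shifted upward and 13.9% downward, and the share of the list called in either direction was near the 29% of all genes. STMN1, a tubulin-binding protein, changed by -1.51 ± 0.18 and TUBA1A by -1.48 ± 0.25.

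**Figure D5:**
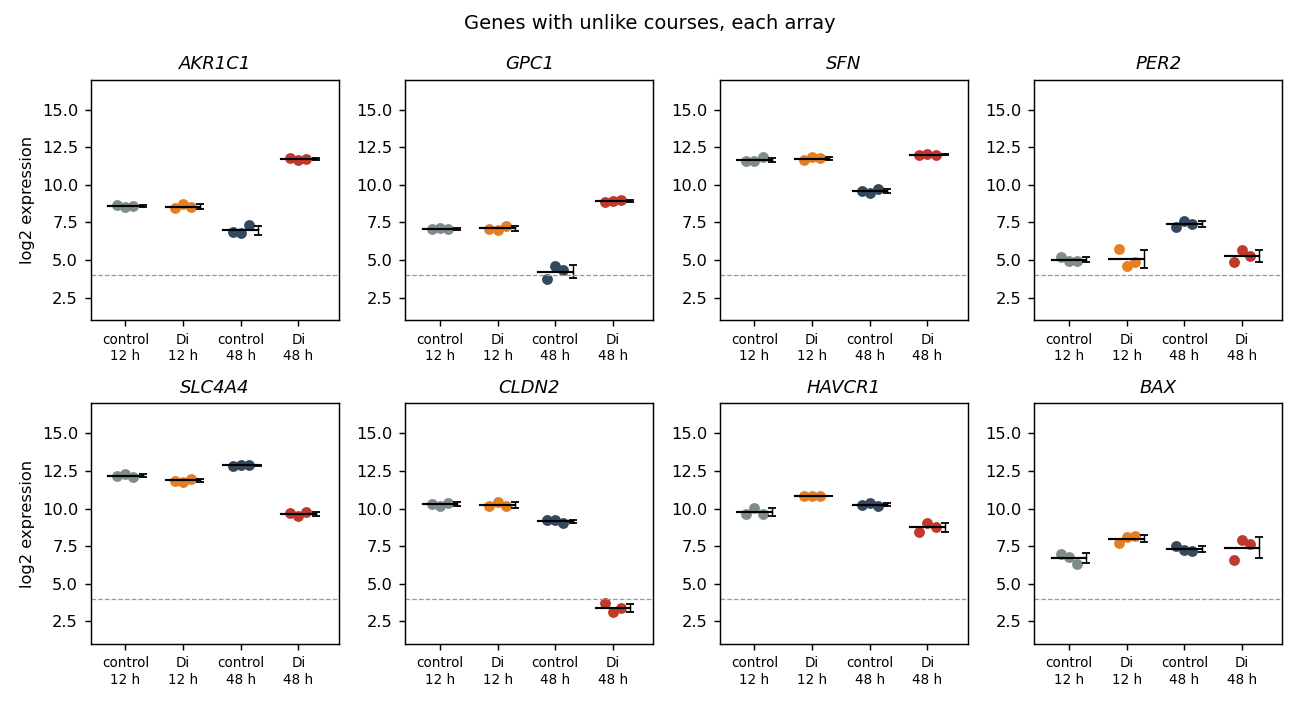
Log2 signal of AKR1C1, GPC1, SFN, PER2, SLC4A4, CLDN2, HAVCR1 and BAX on each of the 12 arrays, with group means as lines, SDs over 3 arrays as bars and a dashed line at 4. In AKR1C1 and GPC1 the courses part in opposite directions, in SFN and PER2 the controls alone moved past the test, and in HAVCR1 the order of treated and control arrays turns between 12 h and 48 h.

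Metallothioneins, small proteins that bind zinc, copper and cadmium, fell in both courses and further with Di. In the list of metallothioneins and zinc response genes, 9 of 12 fell with Di and 8 in controls, and 8 shifted downward and 2 upward, with a median change of -1.05. The shares over all genes were 30.6% and 27.3% for the falls, and 13.9% and 15.1% for the shifts. MT1X read 13.24, 13.31 and 13.24 in the 12 h controls, 13.18, 13.62 and 13.20 with Di at 12 h, 12.54, 12.50 and 12.66 in the 48 h controls and 11.35, 11.20 and 11.15 with Di at 48 h. The 12 h groups overlapped, the 48 h controls were lower and the 48 h Di arrays lower again (change -1.41 ± 0.20). MT2A changed by -0.97 ± 0.17, from -1.68 ± 0.12 with Di and -0.71 ± 0.12 in controls. MT1 genes are near copies of each other and their probe sets may share signal, so the values of MT1F (-1.35 ± 0.19) and MT1G (-1.28 ± 0.23) are not separate from that of MT1X.

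Most measured transport, junction and brush border genes of the proximal tubule fell with Di between 12 h and 48 h. Of 9 measured, 6 fell with Di and 2 in controls, and 5 shifted downward and 1 upward, with a median of -1.76 beside 0.035 for all genes. Among all genes 30.6% fell with Di and 27.3% in controls, and 13.9% shifted downward and 15.1% upward. CLDN2, the claudin of the leaky proximal junction, read 10.28, 10.14 and 10.40 in the 12 h controls, 10.15, 10.46 and 10.14 with Di at 12 h, 9.21, 9.21 and 9.04 in the 48 h controls and 3.69, 3.11 and 3.37 with Di at 48 h. The 12 h groups overlapped, the 48 h controls lay about 1 unit lower and the 48 h Di arrays were all under 4. The effect change was at least 35.1-fold downward, with a control course of -1.12 ± 0.23. CDH6, kidney cadherin, changed by -3.44 ± 0.31, from -4.89 ± 0.22 with Di and -1.45 ± 0.22 in controls (1 dim probe set of it differed), and SLC3A1, the cystine and basic amino acid carrier subunit, by -2.36 ± 0.37 with a control course of 0.10 ± 0.26 that did not pass. Outside the list, the organic anion carrier SLC17A3 changed by -4.25 ± 0.32 and the homeobox factor IRX3 by -2.91 ± 0.24. PAX8, a nephron factor listed with IRX3, shifted upward, from 9.76 to 10.16 with Di and from 10.01 to 9.79 in controls. With its probe sets averaged its change was 0.12 (adjusted p = 0.693). The upward member of the proximal list was DAB2, from 7.6 to 8.8 with Di and from 7.8 to 8.1 in controls (adjusted p = 0.109 without control 12 h replicate 2). The peptidases ENPEP and DPP4 of that list, chosen after their values were seen, did not fall with Di. ENPEP went from 10.30 to 10.87 with Di and from 10.68 to 11.34 in controls. DPP4 went from 11.01 to 11.12 with Di and from 10.95 to 11.44 in controls. The mean level over the 28 listed genes on the array was 5.01 to 5.05 in the 12 h controls, 4.95 to 5.00 with Di at 12 h, 5.01 to 5.03 in the 48 h controls and 4.33 to 4.38 with Di at 48 h. The mean over 6 fibroblast markers, of which 3 were below background throughout, was 6.05 to 6.14, 5.90 to 6.07, 5.65 to 5.71 and 5.35 to 5.39 in the same order. Of 5 distal nephron markers measured, 4 were lower with Di at 48 h, and 3 shifted downward and 0 upward. Those shares over all genes were 23.9%, 13.9% and 15.1%. The mean over 13 on the array was 4.15 to 4.25, 4.17 to 4.23, 4.34 to 4.41 and 3.93 to 4.01 in the same order. The median change of the 5, -1.37, was that of AQP3, whose mean with Di at 48 h was under 4, so it is not read as a size. Their median Di course, -0.21, was that of SCNN1A, and 2 of the 5 had a group mean under 4. That median is therefore not read against the -1.52 of the proximal list. CDH16, a kidney cadherin, changed by -1.72 ± 0.50 and the sodium channel subunit SCNN1A by -0.66 ± 0.19. CLDN16 shifted downward while rising in both courses, from 7.9 to 10.3 in controls and from 8.4 to 9.4 with Di. Its change did not pass with no filter (adjusted p = 0.0721) or without control 12 h replicate 2 (0.0968), among other alternatives. The count of 3 distal markers shifted downward ranged from 2 to 4 over the alternatives. The part of either marker list in the result was not tested.

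Of 20 injury markers 4 shifted upward and 4 downward (9 with array weights), beside 15.1% and 13.9% of all genes, so the list is described by its members. HAVCR1, which encodes KIM-1, a receptor shed by injured proximal tubule cells, read 9.63, 10.05 and 9.64 in the 12 h controls, 10.86, 10.83 and 10.86 with Di at 12 h, 10.21, 10.38 and 10.17 in the 48 h controls and 8.47, 9.02 and 8.74 with Di at 48 h. Treated arrays lay above controls at 12 h and below them at 48 h, without overlap at either time. Its effect was 1.07 ± 0.16 at 12 h and -1.50 ± 0.16 at 48 h, a change of -2.58 ± 0.23 (adjusted p = 1.72e-09), with -2.10 ± 0.16 in the Di course and 0.48 ± 0.16 in the control course. LCN2, which encodes NGAL, was under 4 on all 6 arrays at 12 h, read 6.00, 5.54 and 5.78 in the 48 h controls and 7.68, 7.74 and 7.90 with Di at 48 h. It was thus higher at 48 h in both groups and higher with Di, by 2.00 ± 0.13. The adhesion molecule VCAM1 changed by -4.02 ± 0.40, and the matricellular genes CCN1 and CCN2 by 1.50 ± 0.32 and 1.06 ± 0.28.

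Among ligands and feedback genes of the EGF receptor, whose ligand EGF was in the medium, 10 of 18 shifted upward and 3 downward (median 0.73). Over all genes these shares were 15.1% and 13.9%. DUSP5, a phosphatase that acts on ERK in the nucleus, had 2.51 ± 0.16 with Di and -0.89 ± 0.16 in controls, a change of 3.40 ± 0.23. DUSP6, its counterpart in the cytoplasm, went the other way, with -2.62 ± 0.13, -0.91 ± 0.13 and a change of -1.71 ± 0.18. The ligand BTC changed by 2.62 ± 0.38 and the inhibitor SPRY1 by -2.15 ± 0.40. In the immediate early list 7 of 17 shifted upward and 3 downward, beside the same shares of all genes. EGR1 changed by -2.63 ± 0.22, nearly all in treated cells (-2.68 ± 0.15), and JUNB by -1.18 ± 0.26. KLF4 changed by 2.30 ± 0.31, and FOSL1, whose 48 h controls were under 4, by at least 6.68-fold.

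Of 22 p53 targets measured, 9 shifted upward and 2 downward, beside 15.1% and 13.9% of all genes, with a median of 0.48. CDKN1A, the inhibitor p21, read 9.43, 9.48 and 9.54 in the 12 h controls, 9.94, 9.98 and 10.06 with Di at 12 h, 9.85, 9.88 and 9.92 in the 48 h controls and 11.65, 11.80 and 11.71 with Di at 48 h. Treated arrays lay above controls at both times without overlap, by 0.52 ± 0.10 at 12 h and 1.84 ± 0.10 at 48 h (change 1.32 ± 0.14, adjusted p = 5.2e-08). MDM2, which degrades p53, changed by 0.82 ± 0.23, the polo-like kinase PLK2 by 1.65 ± 0.20 and the stress cytokine GDF15 by 1.56 ± 0.27, the last rising by 2.31 ± 0.19 in controls as well. BAX, a pore-forming death protein, read 7.00, 6.80 and 6.34 in the 12 h controls, 7.71, 8.09 and 8.20 with Di at 12 h, 7.54, 7.24 and 7.19 in the 48 h controls and 6.59, 7.93 and 7.67 with Di at 48 h. It was higher with Di at 12 h (1.28 ± 0.25) and the groups overlapped at 48 h, a change of -1.21 ± 0.35 (adjusted p = 0.00984; 0.0517 with only the 4 groups fitted).

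Autophagy and lysosome genes shifted upward in 16 of 27 and downward in 0, beside 15.1% and 13.9% of all genes, with a median of 0.66. CTSL, the protease cathepsin L, changed by 2.12 ± 0.15, nearly all in treated cells (1.89 ± 0.11), and ULK1, the kinase that starts autophagy, by 1.13 ± 0.34 (adjusted p = 0.014; 0.0558 without control 48 h replicate 3). Of 25 genes of glycolysis and the hypoxia response, 9 shifted upward and 2 downward, beside the same shares of all genes. NDRG1 changed by 2.88 ± 0.37, the vasodilator peptide ADM by 2.56 ± 0.30 and the glucose carrier SLC2A1 by 1.59 ± 0.18. LDHA, lactate dehydrogenase, moved by -0.48 ± 0.10, against the direction of those members. Interferon-stimulated genes shifted downward in 6 of 23 (11 with only the 4 groups fitted) and upward in 2, beside 13.9% and 15.1% of all genes, with IFI44 at -2.51 ± 0.47, IFITM1 at -1.78 ± 0.40 and the factor IRF1 at 1.43 ± 0.36. In sterol and fatty acid synthesis, 3 of 24 shifted upward and 7 downward, again beside 15.1% and 13.9% of all genes. The sterol reductase TM7SF2 changed by -2.50 ± 0.32 and the regulator SREBF1 by -1.18 ± 0.28.

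In the remaining lists, beside 29% over all genes, calls up and down were these: matrix genes (7 up and 2 down of 23, or 11 and 3 with the CdCl and Di set only), cytokines and NF-kB targets (4 and 1 of 19), YAP targets (4 and 1 of 19, or 7 and 3 with the replicate block), base excision repair (2 and 3 of 13), BCL2 family (2 and 0 of 13, or 5 and 0 with only the 4 groups fitted), respiratory chain (1 and 5 of 27, or 2 and 10 with array weights) and ribosome biogenesis (2 and 1 of 21). In these lists COL4A1, a basement membrane collagen, changed by -1.16 ± 0.16, and the growth factor TGFB2 by 1.21 ± 0.24. CXCL8, a neutrophil attractant, changed by 1.12 ± 0.27. The death gene HRK changed by 2.26 ± 0.23. Nephron factors shifted in 1 up and 2 down of 3. Of the 3 fibroblast markers above background 1 shifted downward, and in the list that held TXNIP 1 of 6, ARRDC4, shifted upward.

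A called Di effect at 12 h with none at 48 h was seen in 178 of the changed genes, 46 higher and 132 lower with Di at 12 h, and called effects of opposite sign were seen in 91, 26 higher and 65 lower at 12 h. PBX2, a homeobox cofactor, read 5.27, 6.33 and 5.94 in the 12 h controls, 7.12, 7.58 and 7.00 with Di at 12 h, 7.33, 7.21 and 7.67 in the 48 h controls and 5.80, 6.68 and 5.89 with Di at 48 h, with effects of 1.39 ± 0.25 and -1.28 ± 0.25. Its 3 other probe sets did not have this pattern, and with the mean of its probe sets the change was -0.53 (adjusted p = 0.0776). AP1S1, an adaptor subunit of clathrin coats, had a Di effect that passed at 12 h and not at 48 h, with 2.40 ± 0.41 and -0.48 ± 0.41 (48 h adjusted p = 0.374), a change of -2.88 ± 0.58. The excess of the 3' over the 5' probe set of beta-actin, which reflects RNA integrity, averaged 1.84 (SD 0.142) in the 12 h controls, 1.40 (SD 0.156) with Di at 12 h, 1.50 (SD 0.119) in the 48 h controls and 1.60 (SD 0.110) with Di at 48 h. It differed most between the 12 h groups, and its part in the 12 h effects was not tested. The count of 12 h effects went from 695 to 286 without control 12 h replicate 3, to 309 without control 12 h replicate 2 and to 353 without Di 12 h replicate 2. With arrays centred on their medians it had 293 higher and 253 lower calls, so the excess of lower calls at 12 h rests on the scaling.

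The Di course was last set against that of CdCl, which shares no arrays with it and whose dose is not given either. The courses differed in 4025 genes (36.3%), 1559 (14.1%) higher and 2466 (22.2%) lower in the Di course. Centring the arrays gave 1966 higher and 1876 lower and moved the median difference of all genes from -0.114 to -0.003. HMOX1 averaged 14.25 with CdCl at 12 h and 14.41 at 48 h, against 8.82 and 13.71 with Di (difference of courses 4.73 ± 0.27). ATF3 averaged 11.64 and 11.95 with CdCl, against 5.27 and 12.95 with Di (7.37 ± 0.98). AKR1C2 averaged 11.75 and 8.82 with CdCl, lower at 48 h, against 8.07 and 11.14 with Di (6.01 ± 0.31). Of the NRF2 glutathione list 18 of 22 were higher in the Di course, and of the heat shock list 15 of 20.

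In the other direction, MT1X averaged 15.15 and 15.20 with CdCl and 13.33 and 11.23 with Di (-2.15 ± 0.20), and 8 of 12 genes of the metallothionein and zinc list were lower in the Di course. CTHRC1, a secreted collagen regulator, went from 8.43 to 7.61 with CdCl and from 9.41 to 4.27 with Di (-4.32 ± 0.46). SLC17A3 went from 9.29 to 8.72 with CdCl and from 8.94 to 4.32 with Di. CCNB1 went from 11.59 to 9.57 with CdCl, and its Di course minus its CdCl course was -0.80 ± 0.16. In the Di course 30 of 36 mitosis genes and 21 of 33 replication genes were lower than in the CdCl course. Of all genes, 22.2% were lower.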

How the data were processed

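Per the labels' protocols, biotin-labelled cRNA from HK-2 total RNA was read on Affymetrix arrays of 1 colour. The deposited values are log2 signals per probe set, which the authors made with GCRMA (a background correction and normalization method) as named in the submitters' processing notes. The version of GCRMA, and whether all 36 arrays were normalized together, are not given in the sources that were used; comparisons between times and between compounds assume that they were. GCRMA compresses differences of dim genes and partly removes a shift shared by most genes. The values ran from 0.714 to 16.1, no array was a copy of another, and precision is limited by the number of arrays.

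Groups and times came from the sample labels. Of 54675 probe sets, 62 controls were left out and those above 4 on at least 3 of 36 arrays were kept (23599). Those naming several genes or none (3155) were not used, and each gene took its probe set with the highest mean, which left 11092 genes, 5474 of them with several kept probe sets. A model with 12 group means was fitted to all 36 arrays (limma 3.58.1, lmFit and eBayes; R 4.3.3), p-values were adjusted over genes by Benjamini-Hochberg, and 0.05 was the threshold. At least 1 group mean was under 4 in 964 genes, 246 of them among the changed ones. A floored change is printed only where it bounds the size from below.

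The members and the 37 gene lists were chosen with earlier results of these data known. The genes named are index genes, the largest changes in each direction, up to 3 passing members of each list in each direction, the largest in each class of course, the largest differences between the Di and CdCl courses and the pairs of opposite effects whose smaller member was largest; some genes that the rule allows are left out, and those outside it are said to be chosen after their values were seen. Promoters are RefSeq windows from 250 bases before to 50 after a start site, found for 9184 of the genes tested, and searched for each motif on both strands. The fits were tested on simulated data with known changes. Alternatives were the filter, the arrays in the fit, quantile normalization, centring on array medians, averaging the probe sets of a gene, array weights, a replicate block and leaving out each of the 12 arrays.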

Additional observations from a re-analysis of the deposited data

Results flagged for a closer look

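The change of the Di effect is itself a test of a difference between the times, and 3212 genes passed it. Among the 91 genes that passed with called effects of opposite sign at 12 h and 48 h, 4 were taken for having the largest smaller effect of the pair, a ranking that differs from that by the change. HAVCR1 had a change of -2.58, from higher to lower with Di. PBX2 had a change of -2.67 in the same direction, on 1 of its 4 probe sets. SPINK13, an inhibitor of serine proteases, had a fitted change of -2.48, but the 12 h controls and the 48 h Di arrays averaged under 4, so it is read only as at least 2.04-fold downward. MIR570HG, a non-coding host transcript, had a change of 2.27, from lower to higher with Di.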

How the results depend on the processing

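The count for the change of the Di effect was 3212, lay between 2784 and 3019 when 1 of the 12 arrays was left out, and became 4860 with array weights. The Di course ranged from 6045 to 6506 over the left-out arrays, the control course from 4398 to 5181, the 48 h effect from 4193 to 4893 and the difference from the CdCl course from 3621 to 3984. The 12 h effect was the least stable: 695 became 1165 with only the compared groups fitted, 1446 with the CdCl and Di set only, 2394 with array weights and 1662 with the replicate block, and ranged from 286 to 708 over the left-out arrays (452 without Di 12 h replicate 3). Its share of higher calls was 26.6%, 53.7% with centred arrays and 39.4% with quantile normalization. Centring moved that share from 40.1% to 51.1% in the control course and from 47.8% to 52.8% in the Di course. The share moved from 44.5% to 52.3% in the 48 h effect and from 38.7% to 51.2% between the Di and CdCl courses. Same-numbered arrays did not deviate together (r from -0.348 to 0.178 in 18 pairs, 3 above 0.1, and 1 of 12 arrays closest to its own number), so the numbers were not taken to pair the samples, and with the replicate block the change passed in 4138 genes. With probe sets of a gene averaged the change reversed in SC5D (from 0.377 to -0.049) and in SQLE (from 0.426 to -0.165). Of the 186 genes that the naming rule gives, 175 passed the change. Of these 138 passed under every one of the 21 alternatives in which they were measured, and 37 did not under some. With the filter at 6 only 178 of the 186 were measured. GADD45B passed with only the compared groups fitted (adjusted p = 0.0307). The cause of these differences was not tested. A mean under 4 limits what can be said of dim genes: their log2 differences are compressed, and the folds given for them are lower bounds only.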
